A study of Mus musculus with 6 samples.

Results

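Liver small RNA was examined for the miR-193 and miR-365 family, whose members were chosen by name. All rows of the deposited expression table for an arm of mouse miR-193a, miR-193b or miR-365 were taken, which gave 5 mature miRNAs among 762 mouse miRNAs and 1039 rows in all. The libraries came from liver of wild type ICR mice, an outbred stock, at 30 weeks of age, with 1 library per mouse. Every mouse was kept on high-fat diet (HFD), starting 12 weeks ahead of the gavage, which lasted 8 weeks. Of these mice, the J group (3 mice) received JTXK granule, a Chinese herbal formula for diabetes, and the M group (3 mice) received sterile water. Both groups thus share the diet, and the fits compare JTXK on HFD with water on HFD. Mice on standard diet were not analysed here.

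MicroRNAs are cut from hairpin precursors, and either strand of the hairpin (the 5p or the 3p arm) can be loaded into the silencing complex, where bases 2 to 8, the seed, select target mRNAs. miR-193b and miR-365 are known as a co-transcribed pair that is enriched in brown fat, induced there by the transcription regulator PRDM16, and that favours brown over muscle differentiation. miR-193a and a further copy of miR-365 form a paralogous pair at another locus. In tumours, miR-193a-3p and miR-193b-3p are mostly described as brakes on growth genes.

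The 5 mature sequences are shown because they decide which locus a read can be given to. They are the RefSeq sequences on GRCm38.p6, written 5′ to 3′ with the seed in capitals.
mmu-miR-193a-3p: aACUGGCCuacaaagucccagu
mmu-miR-193b-3p: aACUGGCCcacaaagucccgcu
mmu-miR-193a-5p: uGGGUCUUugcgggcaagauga
mmu-miR-365-3p: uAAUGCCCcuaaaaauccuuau
mmu-miR-365-2-5p: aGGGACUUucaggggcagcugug
miR-193a-3p and miR-193b-3p shared the seed ACUGGCC, which no other annotated mouse miRNA in the RefSeq table had. They differed at 3 of 22 bases, as U9C, A20G and G21C (positions from the 5′ end, base of miR-193a-3p first). miR-365-3p carried a seed of its own, AAUGCCC, and is identical from both of its hairpins. Its 5p arm tells those hairpins apart, and the arm counted here, miR-365-2-5p, belongs to the copy beside Mir193a.

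Mir193a (chromosome 11, 79711969 to 79712034) and Mir365-2 (chromosome 11, 79726400 to 79726511) lie on the plus strand, 14365 bases apart, and no other gene of GENCODE vM21 or RefSeq covers either hairpin. Mir193b (chromosome 16, 13449523 to 13449601) and Mir365-1 (chromosome 16, 13453840 to 13453926) lie on the plus strand, 4238 bases apart. This pair falls within the span of the long noncoding RNA genes Gm32817 and Gm53058 of RefSeq and opposite Gm15738 of GENCODE, outside the exons of the last. Positions are from GRCm38. The 4 hairpins give 7 named arms, of which miR-193b-5p and miR-365-1-5p were not analysed here.

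The unit was RPM, the reads of a miRNA per 1000000 reads of all miRNAs in its library, as computed by the authors. The whole reads behind the values could be recovered, and there were 2626353 to 4314134 reads per library, so that 3 reads corresponded to 0.695 to 1.14 RPM. One library stood apart before any comparison was made. Over the 548 miRNAs with a mean above 1 RPM in either group, the correlation of log2(RPM + 1) between M group replicate 1 and the other libraries was 0.931 to 0.941, against 0.973 to 0.989 among those. In M group replicate 1, 30 miRNAs exceeded all other libraries by 4-fold or more (with 1 RPM added), against 0 or 1 in each of the rest. Its label also carries the code MX1 where the other M libraries carry MX2, and what the code stands for is not given in the sources used here. Without it, all M libraries share a code, and values that it moves are therefore also given without it. In what follows the libraries are written J1, J2 and J3 and M1, M2 and M3, by group and replicate.

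Among the 5 miRNAs, the most read were miR-365-3p and miR-193a-3p, and miR-193b-3p was close to the limit of detection. miR-365-3p ranked 124th of the 762 mouse miRNAs by mean RPM, miR-193a-3p 161st, miR-193a-5p 239th, miR-365-2-5p 335th and miR-193b-3p 395th. Counts of different small RNAs were not calibrated against each other, so these ranks are of reads and not of molecules. From the brown-fat pair, the 1 arm with reads of its own analysed here (miR-193b-3p) had 50 reads in all 6 libraries. From the pair on chromosome 11 there were 3 such arms by their deposited names, with 1815 reads together, so these totals are not over the same number of arms.

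**Figure D1:**
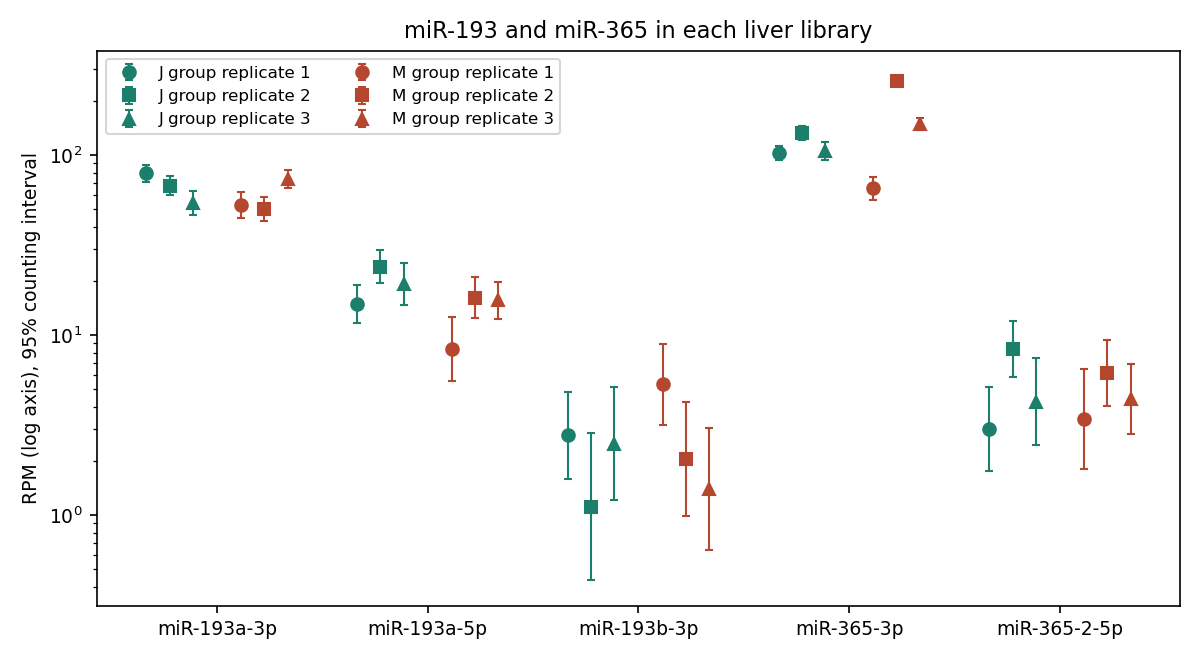
RPM of each member (log axis) in the 3 J and 3 M libraries, with 95% Wilson counting intervals as bars. The J and M libraries overlapped for all 5 miRNAs, and miR-365-3p had its lowest and its highest value in the M group.

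miR-193a-3p, the arm loaded from Mir193a and a repressor of growth and survival genes, had similar means in both groups, less than 1 SD apart. It had 79.3, 67.8 and 54.2 RPM in J1, J2 and J3 and 52.5, 50.1 and 73.8 RPM in M1, M2 and M3. The groups overlapped, since M3 lay above J2 and J3. The means were 67.1 ± 12.6 RPM (SD, n = 3) under JTXK and 58.8 ± 13.0 RPM under water. The log2 fold change of J over M was 0.19 (standard error 0.27, 95% interval -0.44 to 0.83, adjusted p = 0.81 by limma), and it was 0.12 without M1, 0.06 without J1, 0.09 without M2 and 0.36 without M3. Its spread within groups, 0.29 on the log2 scale, was below the median of 0.44 over all 548 miRNAs.

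miR-193a-5p, the opposite strand of the same hairpin, had a higher mean in the J group, but the libraries of the groups overlapped and the difference did not pass the test. The values were 14.8, 24.0 and 19.3 RPM for J1 to J3 and 8.38, 16.1 and 15.6 RPM for M1 to M3. M1 was the lowest of all, with 22 reads, and J1 lay below M2 and M3. With 19.4 ± 4.59 RPM (SD, n = 3) under JTXK and 13.4 ± 4.33 RPM under water, the log2 fold change was 0.53 (standard error 0.35, 95% interval -0.28 to 1.34, adjusted p = 0.71 by limma). Without M1 it was 0.25 (95% interval -0.48 to 0.98). Of the 5 miRNAs, this was the one with the smallest unadjusted p, at 0.17.

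miR-193b-3p, the arm of the brown-fat hairpin on chromosome 16, was rare in every liver. Only 12 reads in J1, 4 in J2 and 7 in J3 were found, and 14 in M1, 7 in M2 and 6 in M3. This corresponded to 2.78, 1.12 and 2.495 RPM against 5.33, 2.05 and 1.40 RPM. The highest value was that of M1, whose Wilson interval (3.18 to 8.95 RPM) overlapped that of J1 (1.59 to 4.86 RPM). It lay above those of J2 (0.434 to 2.87 RPM) and of M3 (0.640 to 3.05 RPM), the latter in its own group. The log2 fold change was -0.24 (standard error 0.47, 95% interval -1.34 to 0.85, adjusted p = 0.87 by limma). This fold change turned to 0.17 without M1 and to 0.02 without J2, so that no direction can be given from these libraries.

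miR-365-3p, the arm common to both miR-365 hairpins, had the widest spread within the M group. J1, J2 and J3 lay close together at 103, 133 and 106 RPM, while M1, M2 and M3 had 65.5, 258 and 149 RPM. The M group thus held both the lowest and the highest of the 6 libraries, with a 3.93-fold span against 1.29-fold in the J group. The Wilson intervals, which cover counting error only, ran from 56.4 to 76.0 RPM in M1 and from 241 to 275 RPM in M2. The means were 114 ± 16.4 RPM (SD, n = 3) under JTXK and 157 ± 96.4 RPM under water. The log2 fold change was -0.27 (standard error 0.47, 95% interval -1.38 to 0.84, adjusted p = 0.86 by limma).

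The result for miR-365-3p rested on single M libraries. Without M1 all 3 J libraries lay below both remaining M libraries, as they did for 14.5% of the 519 miRNAs tested in that fit. The log2 fold change was -0.79 (standard error 0.30, 95% interval -1.48 to -0.10), past the thresholds with an unadjusted p of 0.030 but an adjusted p of 0.71 by limma. In the same fit 4.24% of the 519 were past the thresholds and lower in the J group. Without M2 the direction turned, with a log2 fold change of 0.19. The SD of log2(RPM + 1) within groups was 0.71, larger than in 76.6% of the 548 miRNAs. The added 1 RPM draws together the values of rare miRNAs such as miR-193b-3p, whose 6 libraries spanned 4.77-fold.

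miR-365-2-5p, the opposite strand of Mir365-2, was covered by 9 to 30 reads. Its levels were 3.01, 8.37 and 4.28 RPM for J1 to J3 and 3.43, 6.16 and 4.42 RPM for M1 to M3. Replicate 2 was the highest of its group in both, and the groups overlapped almost fully. The log2 fold change of 0.07 (standard error 0.41, 95% interval -0.88 to 1.02, adjusted p = 0.97 by limma) fell below 0 without J2 (-0.27) or without M1 (-0.09).

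In the J group against the M group, 0 of the 5 miRNAs passed the thresholds used by the study (absolute log2 fold change above 0.3, unadjusted p under 0.05), while 5.29% of the 548 miRNAs tested did. The p set against these thresholds was that of limma, so the miRNAs past them can differ from those the paper lists. By limma 0 of the 5 had an unadjusted p under 0.05. Both edgeR and DESeq2 on the recovered reads also put 0 of the 5 past the thresholds, against 45 and 36 of all miRNAs in those fits. Full separation of the J from the M values was seen for 0 of the 5, against 13.5% of the 548. The median log2 fold change of the 5 was 0.07, with 3 above and 2 below 0, and that of all 548 was -0.13. For 4 of the 5 miRNAs the 95% interval reached beyond 1 on the log2 scale on one side (miR-193a-3p was the exception), so the groups cannot be called alike.

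**Figure D2:**
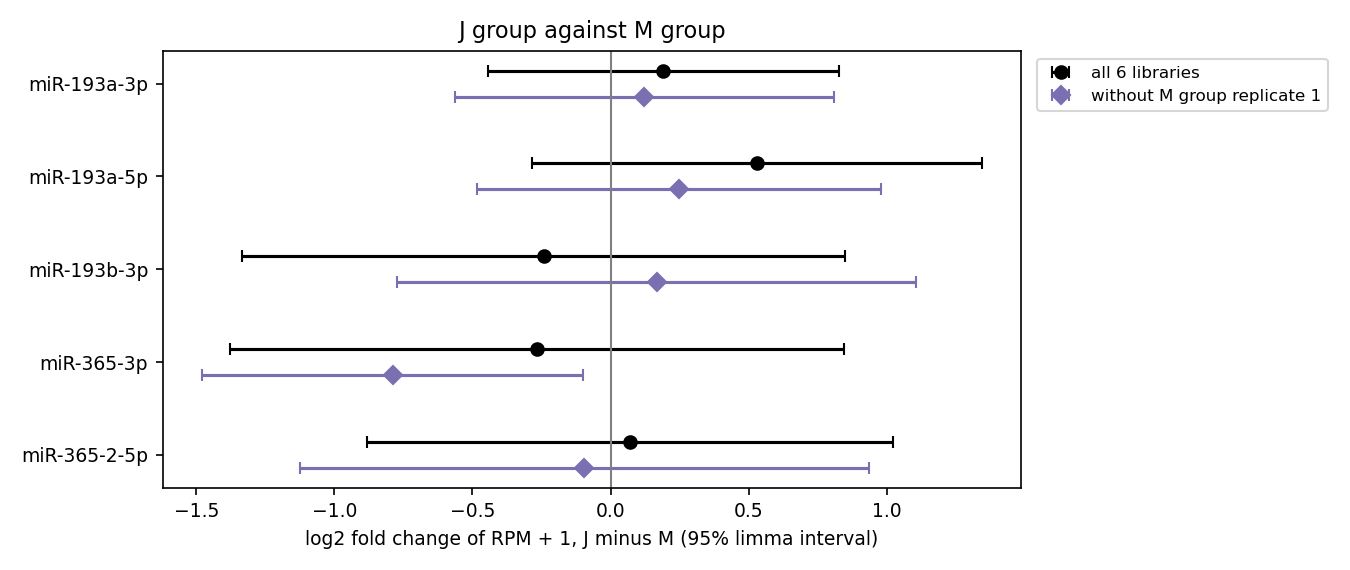
Log2 fold change of RPM + 1, J minus M, for each member with its 95% limma interval, from all 6 libraries (circles) and without M1 (diamonds). The intervals from all 6 libraries cover 0 for the 5 miRNAs, and that of miR-365-3p lies below 0 without M1 (-1.48 to -0.10).

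Summed over the 5 miRNAs, the family took 203, 234 and 186 RPM for J1 to J3 and 135, 332 and 244 RPM for M1 to M3. M1 and M2 again enclosed all the others. The sum was 208 ± 24.3 RPM (SD, n = 3) against 237 ± 98.7 RPM, and the groups could not be separated (exact two-sided permutation test, p = 0.7, adjusted p = 0.7 over 4 such tests, where 3 against 3 cannot go below 0.1). miR-365-3p made up 48.5% to 77.6% of the sum, and the difference was -29.6 RPM with all libraries, -80.7 RPM without M1 and 17.8 RPM without M2.

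Ratios within a library do not depend on how the library is scaled. For the paralogous guide arms with the shared seed, there were 27.3 reads of miR-193a-3p per read of miR-193b-3p over the 6 libraries together. This ratio was 28.5, 60.8 and 21.7 for J1 to J3 and 9.86, 24.4 and 52.8 for M1 to M3. By the deposited names, copy a on chromosome 11 was thus read more than copy b in each liver, and the lowest ratio belonged to M1. How reads that match both copies were shared out is not given in the sources used here. On the log2 scale (with 0.5 reads added) the groups had 4.96 ± 0.72 and 4.46 ± 1.18 (SD, n = 3), without separation (exact two-sided permutation test, p = 0.6, adjusted p = 0.7). The difference of 0.50 turned to -0.10 without M1.

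The 3p arm was the more read arm of Mir193a in each library. There were 5.34, 2.83 and 2.81 reads of 3p per read of 5p for J1 to J3 and 6.27, 3.11 and 4.73 for M1 to M3. The J and M values interleaved, and the log2 ratio was 1.80 ± 0.53 against 2.16 ± 0.50 (SD, n = 3, exact two-sided permutation test, p = 0.5, adjusted p = 0.7). Its difference of -0.37 became -0.14 without M1. miR-365-3p had 34.1, 15.8 and 24.8 reads per read of miR-365-2-5p for J1 to J3 and 19.1, 41.9 and 33.7 for M1 to M3, with log2 ratios of 4.52 ± 0.54 and 4.86 ± 0.61 (SD, n = 3, exact two-sided permutation test, p = 0.6, adjusted p = 0.7). Here the difference of -0.33 became -0.67 without M1 and -0.05 without J2. The numerator of this ratio can hold reads from Mir365-1 as well, whose 5p arm is not in the denominator, so it is not the arm ratio of a single hairpin.

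miR-365-3p and miR-193a-3p can both come from chromosome 11, yet they did not keep a fixed ratio. After the values were seen, the reads of miR-365-3p per read of miR-193a-3p were also computed. They were 1.30, 1.95 and 1.95 for J1 to J3 and 1.25, 5.14 and 2.02 for M1 to M3. M2 stood above the other 5 libraries, as it combined the highest miR-365-3p with the lowest miR-193a-3p. Since miR-365-3p has a second source, the part of either locus in this was not tested.

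**Figure D3:**
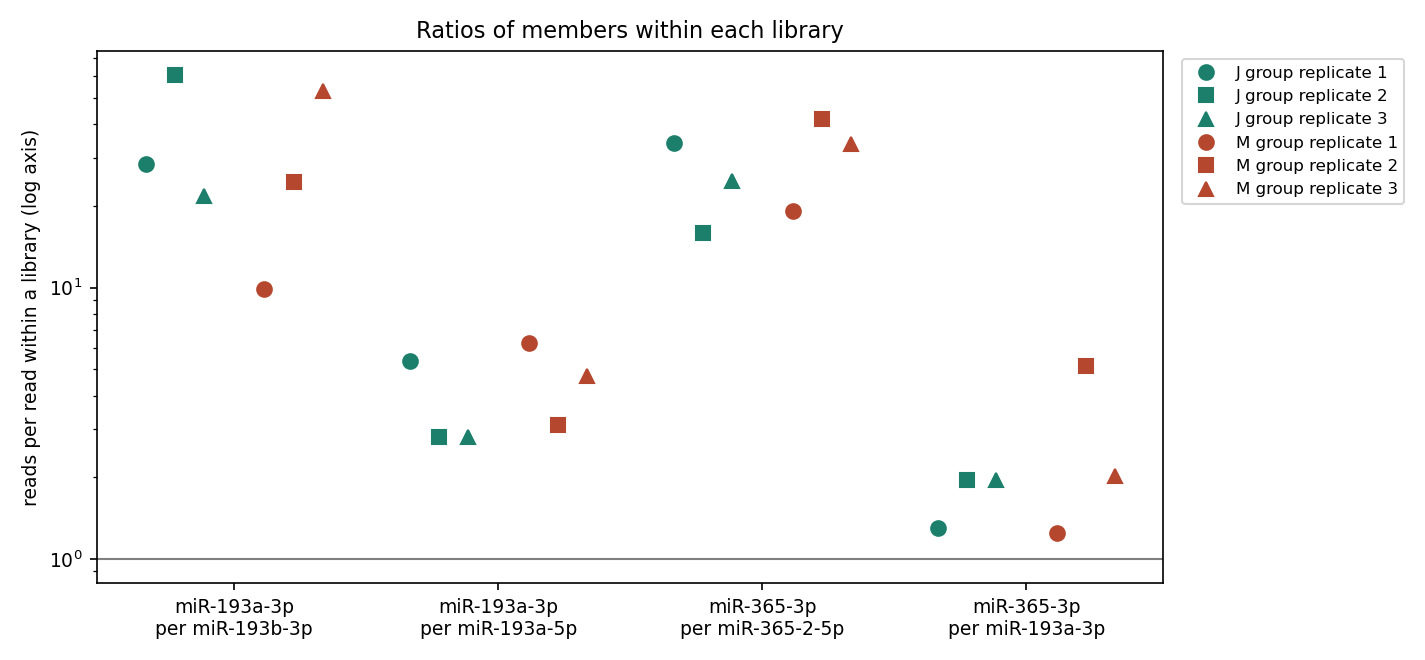
Reads of one member per read of another within each library (log axis, horizontal line at 1), with J libraries in green and M libraries in red. All points lie above 1, J and M points overlap in range in each ratio, and M2 stands out for miR-365-3p per miR-193a-3p (5.14).

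The deposited name of miR-193a-3p carries a range of bases 1 to 18 of 22, whereas those of miR-193b-3p and miR-193a-5p run from 1 to 22, that of miR-365-3p from 1 to 21 of 22 and that of miR-365-2-5p from 1 to 22 of 23. What the range stands for is not given in the sources used here. Of the 3 differences between miR-193a-3p and miR-193b-3p, 1 (U9C) lies within bases 1 to 18. If reads end there, a single base tells the paralogs apart, and how reads that match both were shared out is not given either.

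The miRNAs whose level followed these members most closely across the 6 libraries were sought among the 271 other mouse miRNAs with a mean of at least 10 RPM. miR-365-3p was most like miR-361-5p (Pearson r = 0.99 of log2(RPM + 1), 6 libraries), miR-3105-3p (r = 0.92) and miR-23b-3p (r = 0.81). miR-361-5p had 298, 366 and 333 RPM for J1 to J3 and 249, 500.4 and 402 RPM for M1 to M3. As in miR-365-3p, M1 was lowest and M2 and M3 were highest. For miR-193a-3p the closest were miR-361-3p (r = 0.92), miR-99a-5p (r = 0.92) and miR-203-3p (r = 0.89). For miR-193b-3p they were miR-27a-5p (r = 0.91), miR-181a-1-3p (r = 0.86) and miR-143-3p (r = 0.86), all of them highest in M1. These are descriptions over 6 libraries that share depth and composition within each library, and the best of 271 candidates were picked.

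**Figure D4:**
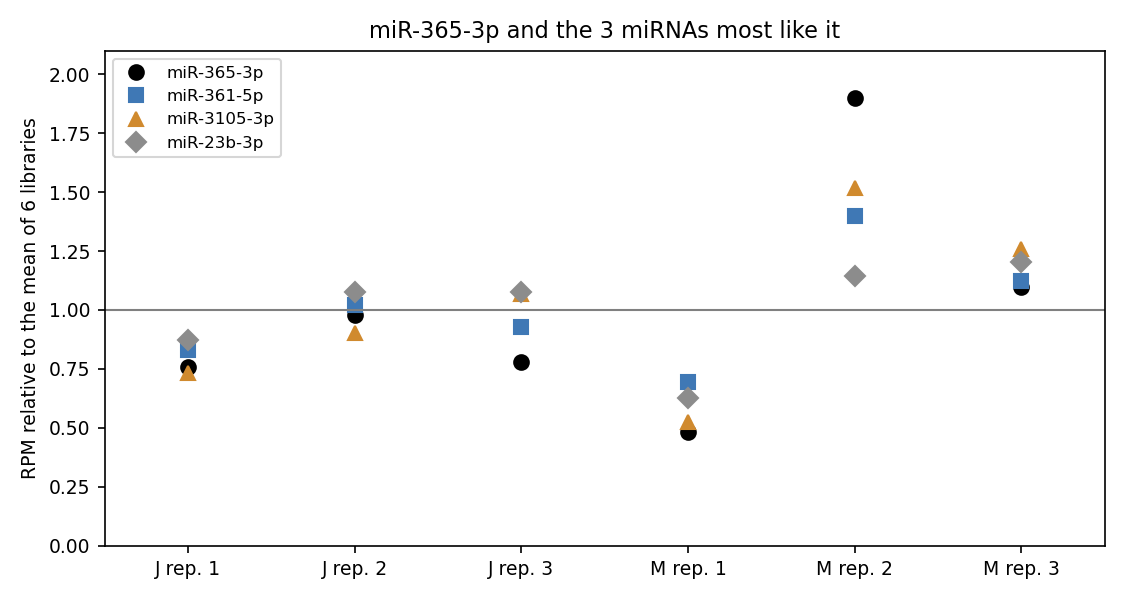
RPM of miR-365-3p and of the 3 miRNAs with the most similar pattern, each divided by its mean over the 6 libraries (line at 1). M1 is lowest for all 4, and M2 is highest for miR-365-3p, miR-361-5p and miR-3105-3p but not for miR-23b-3p, which is highest in M3.

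Other miRNAs reported to act in brown fat were also read in these livers, most of them at higher RPM than miR-193b-3p. Of the list reported to promote brown fat, 12 besides the 3 family members were tested, and 0 passed the thresholds by limma, against 5.29% of all 548. The paper, by its own p, lists miR-32-5p from among the 12 as downregulated. By limma its log2 fold change was -0.33 (95% interval -0.90 to 0.23). The median log2 fold change of the 12 was -0.06 (-0.15 without M1), beside -0.13 over all miRNAs tested (-0.09 without M1). The one with the widest difference was miR-182-5p, at 273 ± 192 RPM (SD, n = 3) under JTXK and 713 ± 415 RPM under water, with a log2 fold change of -1.42 (95% interval -2.94 to 0.09). At the other end, miR-455-5p, whose target HIF1AN restrains brown fat genes, had 238 ± 22.8 and 145 ± 70.5 RPM, with a log2 fold change of 0.82 (95% interval -0.02 to 1.66). This value rested in part on M2, at 83.8 RPM, and was 0.48 without M2 and 1.18 without M3. miR-455-3p, the other arm of that hairpin, had 396 ± 47.6 and 412 ± 110 RPM (SD, n = 3), with a log2 fold change of -0.03 (95% interval -0.60 to 0.54). The log2 fold change of miR-182-5p was -0.92 without J1, -1.96 without J3 and -1.97 without M3. Of the 17 alternatives, miR-182-5p passed the thresholds under 4 and miR-455-5p under 5. miR-378a-3p, which is made from an intron of the PGC-1β gene, had 4707 ± 1104 and 4662 ± 680 RPM, with a log2 fold change of -0.0012 (95% interval -0.49 to 0.49).

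Of the list reported to restrain brown fat, 11 were tested, of which miR-133a-3p had a mean above 1 RPM in the M group alone, so that the filter fixed its direction. Of the other 10, 2 were lower in the J group by the thresholds and 9 had a log2 fold change below 0. Over all 548 miRNAs, 3.83% were lower by the thresholds and 58.9% had a log2 fold change below 0. Without M1, 1 of the 10 (miR-199a-5p) was lower by the thresholds. The median of the 10 was -0.48 (-0.28 without M1), against -0.13 over all 548 miRNAs (-0.09 without M1). Those past the thresholds were miR-199a-5p, with 675 ± 43.8 RPM (SD, n = 3) under JTXK and 1040.5 ± 42.8 RPM under water, and miR-214-3p, with 20.5 ± 1.12 and 30.6 ± 2.40 RPM. Their log2 fold changes were -0.63 and -0.55, and their adjusted p by limma were 0.43 and 0.71. miR-199a-5p passed the thresholds under 16 of the 17 alternatives and miR-214-3p under 3. Both are also markers of stromal cells, and 3 of the 5 stromal markers tested were lower in the J group by the same thresholds, against 3.83% of all 548 (2 of the 5 without M1, against 4.24% of 519). The paper lists miR-199a-5p, miR-214-3p and the stromal marker miR-145a-5p as downregulated in these same libraries. The restraining and stromal lists were chosen with earlier results of these data known, so these counts are no independent support. The summed RPM of the stromal list was 13326 to 17628 for J1 to J3 and 17425 to 26220 for M1 to M3. Of the markers of blood-derived immune cells, 6 of 6 had a log2 fold change below 0 (median -0.84), against 58.9% of all 548. Without M1 it was 5 of 6 (median -0.44), against 57.4% of 519. The smallest differences of the 6 were those of miR-223-3p (-0.32, 95% interval -1.17 to 0.53) and miR-150-5p (-0.18, 95% interval -0.89 to 0.53). Of the 6, 1, miR-146a-5p, was lower by the thresholds with and without M1 (-1.79 and -1.24, adjusted p by limma 0.55 and 0.61). The immune marker miR-155-5p is on the restraining list as well, with a log2 fold change of -0.56 (95% interval -1.73 to 0.61). It was -0.18 without J1 and -1.03 without J3, where it passed the thresholds. Of the bile duct markers, 5 of 5 had a log2 fold change below 0 with M1 (median -0.68) and without it (median -0.24), and 0 passed the thresholds by limma. The paper, by its own p, lists the bile duct marker miR-200c-3p as downregulated. The part of stromal, immune or bile duct cells in these differences was not tested. miR-133a-3p, which restrains PRDM16 and is made in muscle, was near the limit, at 0.695 to 0.837 RPM for J1 to J3 and 0.698 to 4.95 RPM for M1 to M3.

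**Figure D5:**
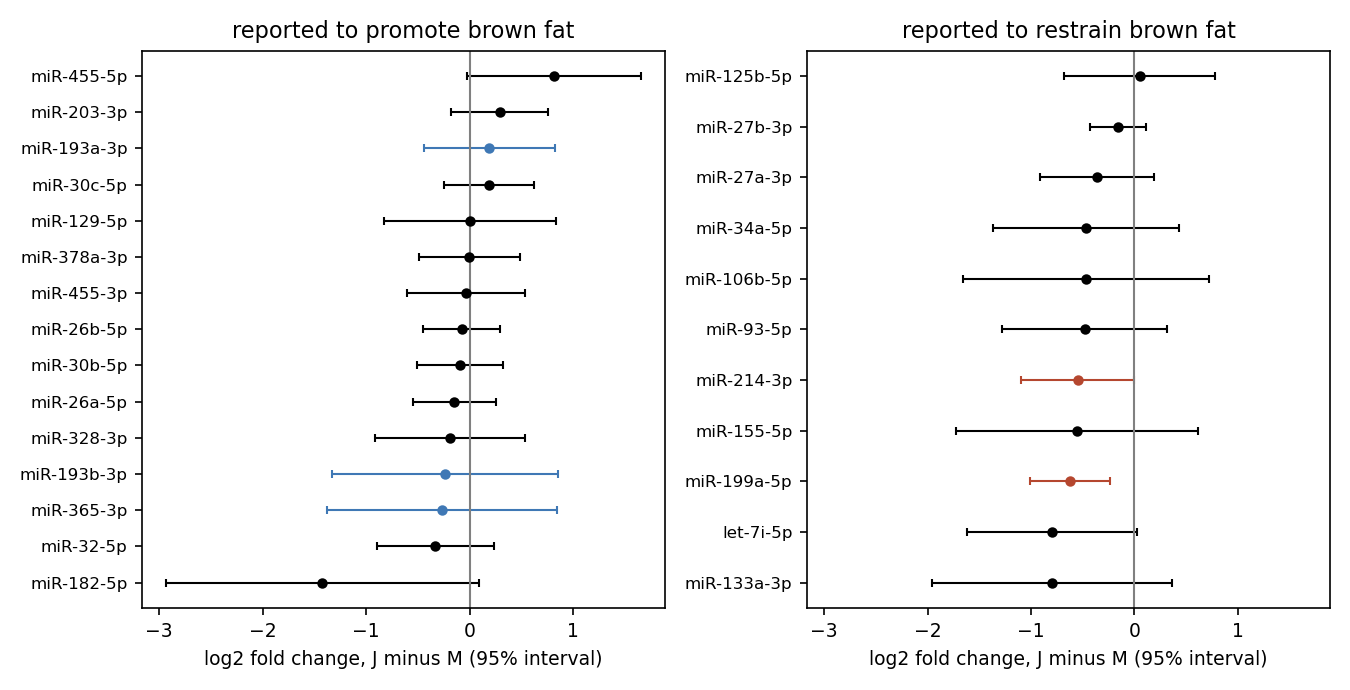
Log2 fold change of RPM + 1, J minus M, with 95% limma intervals for tested miRNAs reported to promote (left, 15, the 3 family members in blue) or restrain (right, 11) brown fat. miR-199a-5p and miR-214-3p (red) passed the thresholds. On the right 10 of 11 lie below 0, among them miR-133a-3p, which exceeded a mean of 1 RPM in the M group alone, and on the left 4 of the 12 miRNAs outside the family lie above 0.

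Markers of the cell types that a piece of liver can hold were summed to set beside these values. The hepatocyte list (5 of 5 read) summed to 399289 to 426890 RPM for J1 to J3 and 398656 to 456078 RPM for M1 to M3, and miR-122-5p, the defining miRNA of hepatocytes, was at 208683 to 262490 RPM over the 6 libraries. The list for blood-derived immune cells (6 of 6 read) had 831 to 1128 RPM in the J group and 1464 to 6025 RPM in the M group, that of bile duct epithelium (5 of 5) 950 to 2379 and 1203 to 4298 RPM, and that of skeletal muscle (3 of 4) 2.495 to 5.10 and 2.56 to 22.5 RPM. In the immune, bile duct and muscle lists, and in the stromal one (5 of 6), the highest sum was that of M1, the library with the lowest miR-365-3p and miR-193a-5p and the highest miR-193b-3p. Without M1 the M sums reached 1641 RPM for the immune, 2341 RPM for the bile duct, 4.398 RPM for the muscle and 21156 RPM for the stromal list. The red blood cell list (4 of 5) had 5842 to 8671 and 3914 to 13098 RPM and the endothelial list (1 of 2) 4166 to 6718 and 4486 to 5579 RPM. Of these markers, the muscle miRNA miR-206-3p was at 0 in J3, M1 and M2. The part of other cell types in the values of the family was not tested, and in pieces of tissue, fewer cells of a type and less RNA per cell cannot be told apart.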

How the data were processed

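Small RNA libraries (NEBNext, Illumina HiSeq) were made by the authors from the liver of 3 J and 3 M mice. The deposited table holds RPM, for which the authors filtered reads, matched distinct sequences to Rfam and miRBase, and divided the reads of a miRNA by all miRNA reads of a library. The submitters' notes name the mm9 build. The aligner and the rule for reads with several matches are not given in the sources used here. All values were whole multiples (within 0.01 reads) of 1 read, so reads were recovered (100% whole). Groups came from the labels. limma 3.58.1 in R 4.3.3 (variance trend, two-sided) compared log2(RPM + 1) for the 548 miRNAs whose mean exceeded 1 RPM in either group, with Benjamini-Hochberg adjustment over all of them. The added 1 RPM draws fold changes of rare miRNAs toward 0. Single values were tested by exact permutation. Wilson intervals are at 95% and cover counting error only, since PCR copies were not told apart. Alternatives used edgeR 4.0.16, DESeq2 1.42.0, other scalings, added RPM, filters, a replicate block and each library left out. Counts and sums of list miRNAs with a library left out, and list counts over miRNAs above 1 RPM in both groups, were added after seeing the data. The fit was tested on simulated data. Numbers were processed with Python 3.11.15, pandas 2.3.3 and statsmodels 0.14.6. The members and lists were chosen with earlier results of these data known. All members are named, other miRNAs by their place on these lists or by the 3 highest correlations with each guide arm. Samples of a group are separate mice.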

Additional observations from a re-analysis of the deposited data

How the results depend on the processing

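Of the 17 alternatives to the fit, 16 left 0 of the members past the thresholds, and miR-365-3p was past them without M group replicate 1 (0 to 1 with a library left out). Over the same fits 21 to 46 of all miRNAs tested were past them. Adjusted p of the members ranged from 0.57 to 0.9996 over the alternatives. miR-193a-3p and miR-193a-5p stayed above 0 under all 17. Of the 83 member values under alternatives, 6 changed direction. Leaving out single libraries gave log2 fold changes from 0.06 to 0.36 for miR-193a-3p, from 0.25 to 0.70 for miR-193a-5p, from -0.53 to 0.17 for miR-193b-3p, from -0.27 to 0.34 for miR-365-2-5p and from -0.79 to 0.19 for miR-365-3p, which also turned to 0.0039 under quantile normalization. Quantile normalization gave 0.49 for miR-193a-3p and 0.67 for miR-193a-5p. The difference in summed RPM ranged from -80.7 to 17.8 and that in the log2 ratio of miR-193a-3p to miR-193b-3p from -0.10 to 1.07. The difference in the log2 ratio of 3p to 5p of miR-193a ranged from -0.67 to -0.14 and that of miR-365-3p to miR-365-2-5p from -0.67 to -0.05. Beyond the library left out, the cause of these turns was not tested. The median over all miRNAs tested, -0.13 on the log2 scale, became -0.04 under median-of-ratios factors and 0.08 under quantile normalization. With the replicate block, 0 members were past the thresholds and the log2 fold change of miR-365-3p was -0.27. The labels name no pairing of the mice. Deviations of same-numbered libraries correlated by -0.01 to 0.06, and those of differently numbered ones by -0.24 to 0.16. With 3 libraries per group these values cannot decide whether the numbers pair the mice. With the filter at 10 RPM, miR-193b-3p and miR-365-2-5p were not tested. The planned ratio of miR-365-2-5p to miR-365-1-5p and the arm ratio of miR-193b were not run, and the arm ratio of miR-365 took its 5p reads from 1 locus and its 3p reads from both. Depth limits miR-193b-3p and miR-365-2-5p, with 4 to 14 and 9 to 30 reads per library.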
